A study of Mus musculus with 17 samples.

Results

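Genes of the MHC class II presentation pathway, 7 of the 41388 gene identifiers in the count tables, were followed through 17 RNA-seq libraries of mouse bone marrow macrophages (BMMs) and osteoclast precursors (preOCs). The genes are Ciita, H2-Aa, H2-Ab1, H2-Eb1, Cd74, H2-DMa and H2-DMb1, matched from symbols to Ensembl identifiers. They were chosen by their measured values in these same libraries, so their levels, differences and threshold calls are a description and serve as no test. BMMs were grown with M-CSF, and preOCs, labelled osteoclast, received M-CSF with RANKL, the cytokine that drives macrophages toward osteoclasts, at 100 ng/ml for 24 h. Bap1flox cells carried floxed Bap1 alleles and no Cre. Bap1ΔLysM cells, labelled Bap1LysM, carried the same floxed alleles and, by the study's methods, 1 copy of LysM-Cre, which is inserted in the Lyz2 locus, acts in myeloid cells and deletes the deubiquitinase gene Bap1. The osteoclast cultures came from male mice of 20 weeks, with littermate controls. There were 3 Bap1flox BMM, 3 Bap1ΔLysM BMM, 6 Bap1flox preOC and 5 Bap1ΔLysM preOC libraries, the last numbered 1, 2, 4, 5 and 6.

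MHC class II molecules display peptides from the endosomal pathway to CD4+ T cells. In mice the alpha and beta chains are H2-Aa with H2-Ab1 and, where an E alpha chain is made, that chain with H2-Eb1. Each pair assembles around the invariant chain encoded by Cd74, which fills the groove and steers the complex to endosomes. There, proteases trim the invariant chain and H2-DM, a dimer of H2-DMa and H2-DMb products, exchanges the remaining fragment for peptide. Transcription of all these genes depends on Ciita, the class II transactivator, which binds no DNA itself and is held at promoters by RFX, CREB and NF-Y at the so-called X and Y boxes. Macrophages express class II at a low level that interferon gamma raises through Ciita, and osteoclasts arise from the same precursors.

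The chain and H2-DM genes lie close together on chromosome 17 of GRCm38, where H2-DMa spans 34135182 to 34139101, H2-DMb1 34153072 to 34160230, H2-Ab1 34263209 to 34269418, H2-Aa 34282744 to 34287827 on the minus strand, and H2-Eb1 34305877 to 34316199. Ciita lies on chromosome 16 from 10488178 to 10527564 and shares 111 of its 5254 exon bases with Dexi on the other strand. Promoter sequence was read for members with a usable window. Of these, H2-Eb1 and H2-DMb1 differed in opposite directions between the genotypes of preOCs. RefSeq windows of GRCm38.p6, from 250 bases before to 50 after the start, were used for H2-Aa, H2-Eb1 and H2-DMb1. H2-Ab1, Cd74 and Ciita had no entry, and that of H2-DMa lay far from its counted gene model. Both strands were searched for an X box core, ACNGATG with N as any base, followed after 12 to 30 bases by a Y box, ATTGG, with no overlap between them. Capitals mark these letters in the 3 sequences, written 5′ to 3′ on the gene's strand. The first is chr17:34287844-34287943 (minus strand), the second chr17:34305747-34305846 and the third chr17:34153100-34153129 (both plus strand). The third is cut to 30 bases because it lies in the first exon of the counted gene model.
H2-Aa: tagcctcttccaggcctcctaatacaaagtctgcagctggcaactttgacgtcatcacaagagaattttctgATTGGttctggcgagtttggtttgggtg
H2-Eb1: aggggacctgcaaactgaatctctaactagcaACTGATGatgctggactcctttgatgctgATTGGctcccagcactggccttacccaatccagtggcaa
H2-DMb1: ACTGATGatgctaggctgattcactcagtg

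In H2-Eb1 the X box core began 88 bases before the start, with 22 bases between it and the Y box. In H2-DMb1 it began 91 bases before the start, with 23 bases to the Y box, whose letters follow directly on the run printed above. The H2-Aa window held a Y box 48 bases before the start and no X box core of these letters, which says only that the letters are not there. Of all 32851 promoter windows of this length, 48 (0.146%) held such a pair without a mismatch. Those of H2-Eb2, H2-DMb2 and the class I gene H2-D1 were among them. The same letters thus stood before H2-Eb1, which was higher, and H2-DMb1, which was lower, in Bap1ΔLysM preOCs. Whether these letters bear on either difference was not tested.

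Total counts were between 37967542 and 61369441 per library. Each of the 7 genes exceeded 1 CPM (reads of the gene scaled to a library of fixed size) in all 17 libraries, and their counts ran from 61 for Ciita in a BMM library to 21044 for Cd74. Lyz2, which the Cre insertion interrupts, was at 0.146 to 0.436% of the Bap1flox mean in 6 Bap1ΔLysM libraries, but at 42.8% in BMM replicate 1 and 75.1% in preOC replicate 1, so these libraries stand apart from the other 6 and values without them are given. A single copy of the Cre leaves the other Lyz2 allele intact, so the levels near 0 lie below what the stated genotype gives, and Lyz2 does not show which libraries match their label. The number of Cre copies in each library is not given in the sources used here. Bap1 mRNA stayed at 64.3 to 101% of the Bap1flox mean and cannot serve as that check, because counts per gene do not separate the deleted exons. The deposited tables of preOC replicates 1 to 3 follow a different naming scheme from those of replicates 4 to 6, and mitochondrial reads took 0.481 to 1.074% in the former and 2.364 to 5.264% in the latter. They are treated as separate library sets, and preOC values are given within each. The study calls its preOC samples biologically independent. The sources used here do not say whether each BMM library is a separate mouse, so the spread among BMMs may be partly technical.

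The question asked of the preOCs was what loss of Bap1 does to gene expression under RANKL. Ciita, H2-Aa, H2-Ab1, H2-Eb1 and Cd74 had mean levels 1.75 to 2.27 times those of Bap1flox preOCs by the fitted fold changes. H2-DMb1 was 1.73-fold lower, and H2-DMa differed by 0.22 on the log2 scale, with a standard error of 0.17. The higher levels were uneven, with larger means in replicates 4 to 6 than in replicates 1 and 2, and small in replicate 1. Levels below are CPM scaled by TMM factors, and fewer cells expressing a gene cannot be told apart from less RNA per cell.

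**Figure D1:**
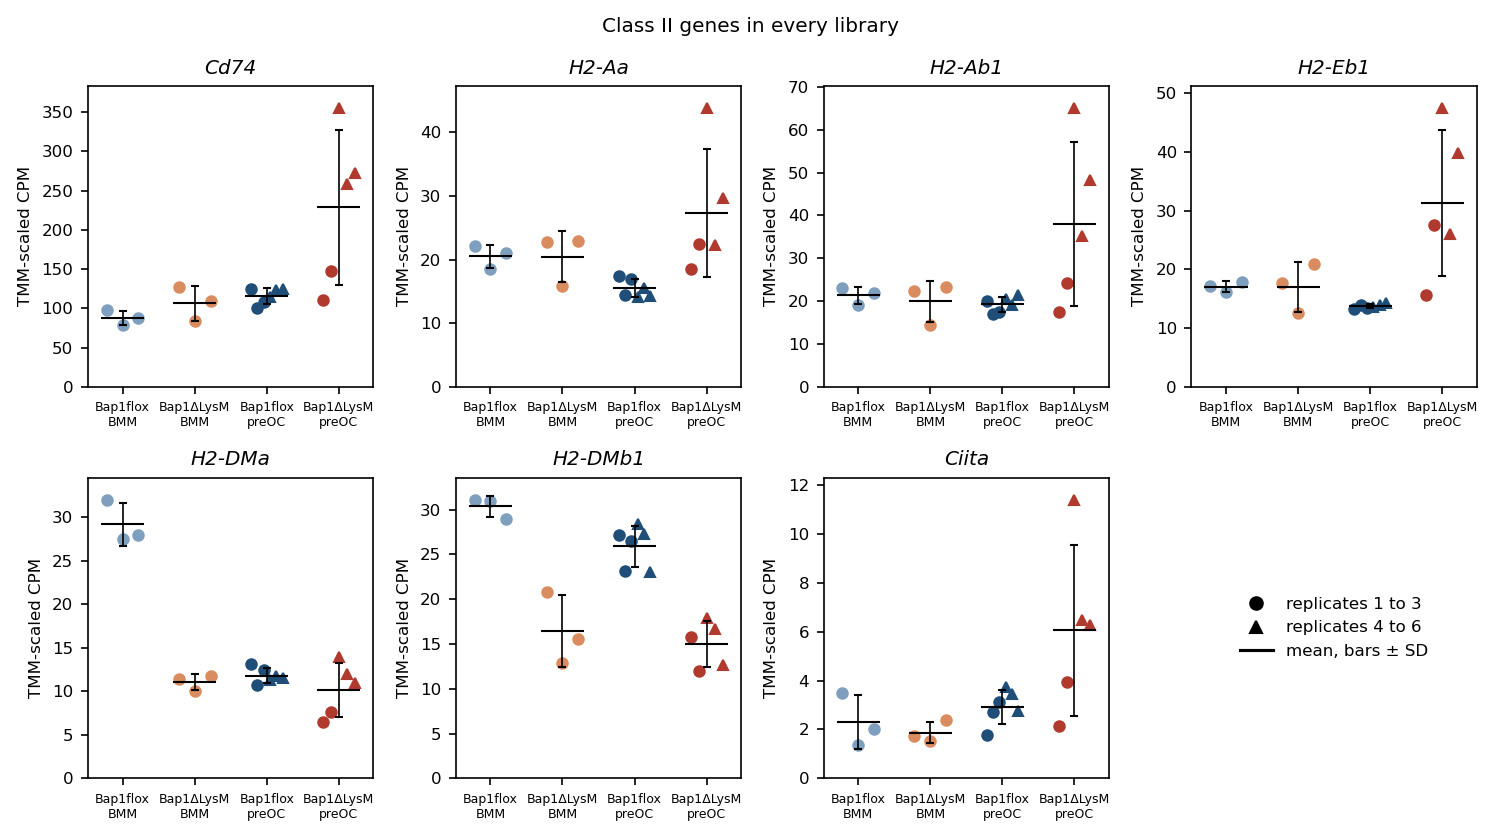
TMM-scaled CPM of each of the 7 genes (vertical axes from 0) in every library by genotype and culture, with circles for replicates 1 to 3, triangles for replicates 4 to 6, a line for the mean and bars for ± SD. The Bap1ΔLysM preOC points are spread widely for Cd74 and the chains, while H2-DMb1 is low in all Bap1ΔLysM libraries.

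Ciita, the transactivator, was the lowest of the 7 genes. In Bap1ΔLysM preOCs it was at 2.15 CPM in replicate 1, 3.93 in replicate 2, 11.4 in replicate 4, 6.50 in replicate 5 and 6.28 in replicate 6. In Bap1flox preOCs it ran from 1.76 to 3.73 with a median of 2.94. Replicate 1 lay within the control range and the others above it. The fitted difference was 1.04 ± 0.34 (log2, standard error), 0.26 in replicates 1 to 3 alone and 1.28 in replicates 4 to 6 alone.

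H2-Aa, the alpha chain of the A molecule, was at 18.5, 22.4, 43.8, 22.3 and 29.7 CPM in the 5 Bap1ΔLysM preOC libraries. Bap1flox preOCs had 14.2 to 17.5 CPM with a median of 15. The groups did not overlap, although the lowest Bap1ΔLysM library, replicate 1, was close to the highest control. The log2 difference was 0.81 ± 0.19, 0.33 in replicates 1 to 3 alone and 1.13 in replicates 4 to 6 alone.

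H2-Ab1, the partner beta chain, was at 17.4, 24.3, 65.0, 35.2 and 48.2 CPM in Bap1ΔLysM preOCs. In Bap1flox preOCs it was at 16.9 to 21.4 CPM, with a median of 19.6. Replicate 1 again lay within the controls and the other 4 above them. The log2 difference was 0.97 ± 0.26, 0.20 in replicates 1 to 3 alone and 1.29 in replicates 4 to 6 alone.

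H2-Eb1, the beta chain of the E molecule, was the steadiest of the genes in Bap1flox preOCs, from 13.2 to 14.2 CPM with a median of 13.7. In Bap1ΔLysM preOCs it was at 15.6, 27.6, 47.4, 26.0 and 39.8 CPM. All 5 libraries exceeded all 6 controls. The log2 difference over all preOCs, 1.18 ± 0.22, was the largest of the 7 genes, and it was 0.68 in replicates 1 to 3 alone and 1.44 in replicates 4 to 6 alone.

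Cd74, the invariant chain gene at 60803848 to 60812646 on chromosome 18, was the most abundant member. It was at 111, 147, 355, 258 and 273 CPM in Bap1ΔLysM preOCs. Bap1flox preOCs had 101 to 125 CPM with a median of 119. Replicate 1 fell inside the control range and replicates 4 to 6 lay far above it. The log2 difference was 0.96 ± 0.24, or 0.22 in replicates 1 to 3 alone and 1.29 in replicates 4 to 6 alone.

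H2-DMb1, the beta chain of the peptide-exchange dimer, went the other way. It was at 15.8, 12, 17.9, 16.7 and 12.6 CPM in Bap1ΔLysM preOCs and at 23 to 28.4, with a median of 26.8, in Bap1flox preOCs. The groups did not overlap, and replicate 1 was as low as the rest. The log2 difference was −0.79 ± 0.12, −0.88 in replicates 1 to 3 alone and −0.73 in replicates 4 to 6 alone. H2-DMb1 has a near-identical neighbour, H2-DMb2, so reads that match both would not have been counted for either, and its level is uncertain to that extent.

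H2-DMa, the alpha chain of the same dimer, split by library set. It was at 6.50 and 7.59 CPM in Bap1ΔLysM replicates 1 and 2, below every control, and at 13.9, 12 and 10.9 in replicates 4 to 6. Bap1flox preOCs had 10.7 to 13.1 CPM with a median of 11.6. The log2 difference was −0.22 ± 0.17 over all preOCs, −0.78 in replicates 1 to 3 alone and 0.10 in replicates 4 to 6 alone.

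**Figure D2:**
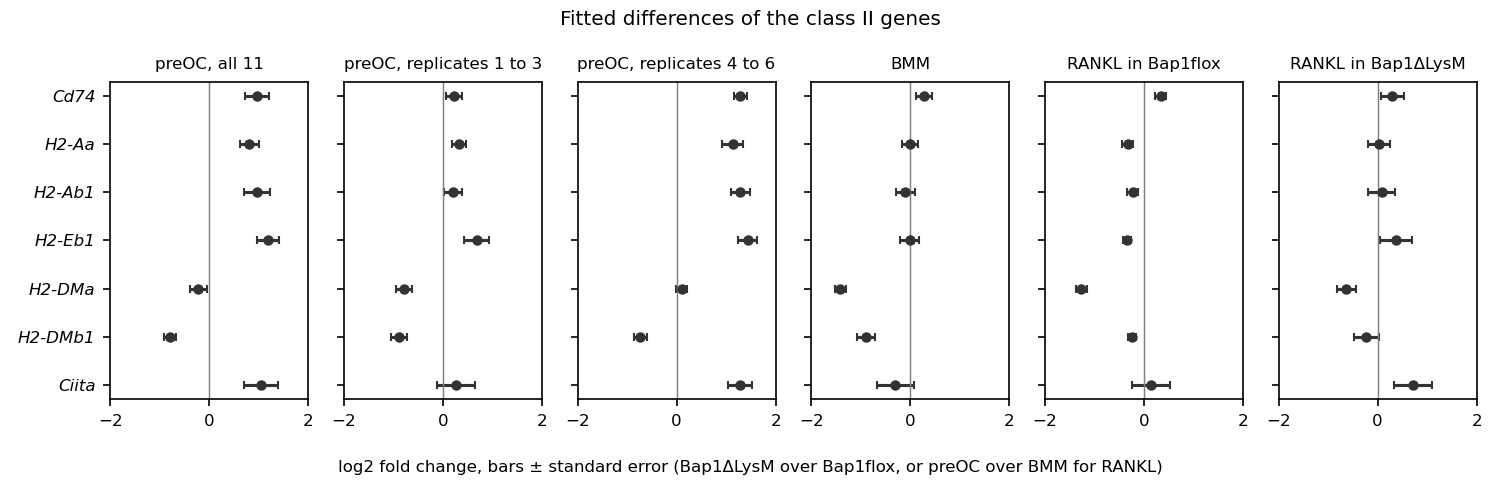
Fitted log2 fold changes of the 7 genes with bars for ± standard error, for genotype in all preOCs, in each preOC set and in BMMs, and for RANKL in each genotype. In BMMs the 2 H2-DM genes stand left of 0 and the chains near it, while in preOC replicates 4 to 6 the chains, Cd74 and Ciita stand right of 0.

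Of 12929 genes tested in preOCs with edgeR's quasi-likelihood test, 7.12% were higher and 8.68% lower in Bap1ΔLysM cells at an adjusted p under 0.05. Among the 7 members 4 were past that threshold as higher (Cd74, H2-Aa, H2-Ab1, H2-Eb1) and 1, H2-DMb1, as lower. Groups did not overlap for 3.32% of genes in the higher direction, H2-Aa and H2-Eb1 among them, and for 6.08% in the lower direction, H2-DMb1 among them. Since the members were picked on such values, nothing is read from these shares. The median log2 difference was 0.96 over the 7 members and −0.01 over all genes tested. The count of calls over all genes was 2043. Blocking on the replicate number gave 4236 calls and a term for the library set gave 4349, and Ciita was then past the threshold too, as it was with DESeq2 and with voom. Of the 11 fits that left out 1 library, H2-Aa, H2-Eb1 and H2-DMb1 were past it in all 11. Cd74 was past it in 9, all but those without Bap1ΔLysM replicate 4 or 5, and H2-Ab1 in 3. Such counts describe the fits and, for members picked on these values, lend no independent support. Within replicates 1 to 3 alone edgeR called 0 genes, with 2373 at an unadjusted p under 0.05, and no other tool was run on that subset.

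Without the preOC library that retained Lyz2, Bap1ΔLysM replicate 1, the log2 differences were 1.25 for Ciita, 0.92 for H2-Aa, 1.15 for H2-Ab1, 1.35 for H2-Eb1, 1.14 for Cd74, −0.82 for H2-DMb1 and −0.10 for H2-DMa. Without replicate 4, which had the highest level of Ciita, the chains and Cd74, they were 0.68, 0.58, 0.69, 0.99, 0.75, −0.86 and −0.36 in the same order of genes. The direction of each gene was the same in both. Spread within the group was also larger in the Bap1ΔLysM preOCs. The SD of log2 CPM was 0.69 for Cd74 there against 0.13 in Bap1flox preOCs, and 0.76 against 0.13 for H2-Ab1, while the median SD of all genes tested was 0.31 against 0.23. For H2-DMb1 these SDs were 0.25 and 0.13.

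In BMMs, where the same contrast was made without RANKL, another pattern was seen. The chains, Cd74 and Ciita differed little between the genotypes, and both H2-DM genes were lower in Bap1ΔLysM cells. H2-DMa was at 32.0, 27.5 and 28.0 CPM in Bap1flox BMMs and at 11.4, 10 and 11.7 CPM in Bap1ΔLysM BMMs. All 3 mutant libraries were far below the controls, including replicate 1, in which Lyz2 was retained. The log2 difference of −1.41 ± 0.11, a 2.65-fold lower level, was larger than that of any member between the genotypes over all preOCs.

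H2-DMb1 was at 31.1, 31.0 and 29.0 CPM in Bap1flox BMMs and at 20.8, 12.9 and 15.5 CPM in Bap1ΔLysM BMMs. The groups did not overlap, and replicate 1 was the least lowered. The log2 difference was −0.89 ± 0.18, and −1.10 without that library. For H2-DMa the value without it was −1.43.

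Cd74 was at 97.4, 78.8 and 87.4 CPM in Bap1flox BMMs and at 127, 83.3 and 109 CPM in Bap1ΔLysM BMMs. H2-Eb1 was at 17.1, 16.1 and 17.9 CPM against 17.6, 12.5 and 20.9 CPM. These groups overlapped, as did those of H2-Aa (18.5 to 22.1 against 15.8 to 22.9 CPM), H2-Ab1 (19.1 to 23.1 against 14.5 to 23.2 CPM) and Ciita (1.36 to 3.51 against 1.53 to 2.37 CPM). The log2 differences were 0.27 ± 0.16 for Cd74, −0.10 ± 0.19 for H2-Ab1, −0.01 ± 0.16 for H2-Aa, −0.01 ± 0.19 for H2-Eb1 and −0.30 ± 0.38 for Ciita. Without Bap1ΔLysM replicate 1 they were 0.12, −0.18, −0.09, −0.03 and −0.24 in the same order.

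Of 13028 genes tested in BMMs, 1.31% were higher and 4.01% lower at an adjusted p under 0.05 by edgeR, and the groups of 3 did not overlap for 16.7% in the higher and 17.2% in the lower direction. H2-DMa and H2-DMb1 were lower by both measures, and they were the members past either. Blocking on the replicate number raised the 693 calls to 2107, and both H2-DM genes were among them. Without Bap1flox replicate 2 or 3 alone, 7 and 4 genes of the whole table were called and the H2-DM genes were not among them. H2-DMa was past the threshold in 4 of the 6 fits that left out 1 library and H2-DMb1 in 1, although the log2 difference of H2-DMa was between −1.45 and −1.34 in all 6.

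RANKL treatment was compared within each genotype on replicates 1 to 3, the numbers that have both cultures. In Bap1flox cells H2-DMa was 2.41-fold lower in preOCs than in BMMs, by −1.27 ± 0.11 on the log2 scale, with preOC values of 13.1, 10.7 and 12.5 CPM. The control preOC level of H2-DMa was thus close to the level in Bap1ΔLysM BMMs. The other members moved less, by −0.25 ± 0.08 for H2-DMb1, −0.33 ± 0.11 for H2-Aa, −0.23 ± 0.11 for H2-Ab1, −0.34 ± 0.08 for H2-Eb1, 0.34 ± 0.11 for Cd74 and 0.14 ± 0.38 for Ciita. Of 13415 genes tested, 31.7% were higher and 32.9% lower at an adjusted p under 0.05, with Cd74 among the former and H2-Aa, H2-Eb1, H2-DMa and H2-DMb1 among the latter. H2-DMa was past it in all 6 fits that left out 1 library and the other 4 genes in 1 to 5 of them. Blocking on the replicate number, which paired these libraries, took H2-DMb1 off that list at the same difference of −0.25 ± 0.09 and left the other 4. Without the CPM filter 2 members, Cd74 and H2-DMa, were past the threshold, where 34.2% of all genes were. With voom all 7 were, Ciita as higher and H2-Ab1 as lower, where 75.8% of all genes were.

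In Bap1ΔLysM cells, with 3 BMM and 2 preOC libraries, the RANKL differences were −0.63 ± 0.19 for H2-DMa, −0.23 ± 0.25 for H2-DMb1, 0.02 ± 0.22 for H2-Aa, 0.08 ± 0.27 for H2-Ab1, 0.37 ± 0.32 for H2-Eb1, 0.30 ± 0.23 for Cd74 and 0.72 ± 0.38 for Ciita. Of 13627 genes, 10.8% were higher and 7.6% lower, and no member was among them in that fit (H2-DMa was with DESeq2). The differences rest on 2 preOC libraries. Without replicate 1, the one that retained Lyz2, they were −0.50 for H2-DMa, −0.41 for H2-DMb1, 0.17 for H2-Aa, 0.32 for H2-Ab1, 0.74 for H2-Eb1, 0.51 for Cd74 and 1.11 for Ciita. Without replicate 2 they were −0.79, −0.08, −0.17, −0.23, −0.15, 0.03 and 0.17 in the same order, so the 3 chains turned negative. Without BMM replicate 1 they were −0.60, −0.02, 0.10, 0.16, 0.39, 0.44 and 0.66. With all 5 preOC libraries the values were −0.11 for H2-DMa, −0.12 for H2-DMb1, 0.43 for H2-Aa, 0.94 for H2-Ab1, 0.89 for H2-Eb1, 1.11 for Cd74 and 1.70 for Ciita, and Cd74 and Ciita were past the threshold, but the added libraries belong to the other library set.

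The genotypes' RANKL responses, Bap1ΔLysM minus Bap1flox on replicates 1 to 3, differed by 0.69 ± 0.33 for H2-Eb1, 0.63 ± 0.19 for H2-DMa, 0.57 ± 0.58 for Ciita, 0.34 ± 0.24 for H2-Aa, 0.30 ± 0.29 for H2-Ab1, 0.01 ± 0.25 for H2-DMb1 and −0.05 ± 0.26 for Cd74. The order depended on single libraries. Without Bap1ΔLysM preOC replicate 1 H2-Eb1 was at 1.07, H2-DMa at 0.77 and Ciita at 0.96, and without replicate 2 they were at 0.19, 0.49 and 0.04. Without Bap1ΔLysM BMM replicate 1 they were at 0.72, 0.66 and 0.51. In that interaction 0.0% of 14106 genes were higher and 0.0% lower by edgeR, with 1751 at an unadjusted p under 0.05, and DESeq2 called 111. With all 17 libraries, which adds the other library set, 384 genes were called, H2-DMa among them, and the values were 1.29 for Ciita, 1.14 for H2-Eb1 and for H2-DMa, 1.02 for H2-Ab1, 0.77 for H2-Aa, 0.65 for Cd74 and 0.05 for H2-DMb1.

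Levels per length allow members to be set beside each other. In RPKM, Bap1flox BMMs had 62.3 ± 6.61 (SD, n = 3) of Cd74, 20.4 ± 0.797 of H2-DMb1, 17.8 ± 1.51 of H2-DMa, 14.4 ± 0.761 of H2-Eb1, 13.0 ± 1.24 of H2-Ab1, 11 ± 0.98 of H2-Aa and 0.436 ± 0.21 of Ciita. H2-DMb1 and H2-DMa met at 19.5 RPKM and both lay above the chains, of which neighbours in this order overlapped. In Bap1flox preOCs H2-DMa was the lowest gene after Ciita at 7.18 ± 0.535 (SD, n = 6), overlapping with H2-Aa at 8.26 ± 0.752, and H2-DMb1 kept its place above the chains at 17.4 ± 1.53. In Bap1ΔLysM BMMs H2-DMb1, at 11.1 ± 2.72 (SD, n = 3), overlapped with the chains, and H2-DMa, at 6.73 ± 0.553, lay below them. In Bap1ΔLysM preOCs the order was Cd74 at 162 ± 70.3 (SD, n = 5), H2-Eb1 at 26.4 ± 10.5, H2-Ab1 at 23.2 ± 11.7, H2-Aa at 14.6 ± 5.37, H2-DMb1 at 10.1 ± 1.74, H2-DMa at 6.2 ± 1.87 and Ciita at 1.15 ± 0.661. This order is of means over both library sets. The ranges of H2-Eb1 (13.2 to 40), H2-Ab1 (10.6 to 39.7) and H2-Aa (9.87 to 23.4) overlapped, H2-DMb1 (8.08 to 12) overlapped with H2-Aa and H2-Ab1, and H2-DMa (3.96 to 8.47) met H2-DMb1. In replicate 1 H2-DMb1, at 10.6 RPKM, lay above H2-Aa and level with H2-Ab1.

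The ratio of H2-DMa to the mean of the 3 classical chains, in RPKM, was 1.29 to 1.45 in Bap1flox BMMs and 0.484 to 0.656 in Bap1ΔLysM BMMs. In preOCs it was 0.645 to 0.739 in Bap1flox and 0.246 to 0.396 in Bap1ΔLysM cells. The ratio of H2-DMb1 to the chains was 1.43 to 1.81 in Bap1flox preOCs and 0.324 to 0.948 in Bap1ΔLysM preOCs. Neither ratio overlapped between genotypes in either culture, and this included both library sets and both libraries that retained Lyz2. The genes were picked on these values and no share over other genes was taken, so nothing is read from this. In preOC replicates 4 to 6 H2-DMa itself was at 10.9 to 13.9 CPM in Bap1ΔLysM and 11.3 to 11.7 CPM in Bap1flox cells. The lower H2-DMa ratio in that set thus reflects the higher chains. The ratio of Cd74 to the chains, 7.2 to 8.36 in Bap1flox and 6.24 to 9.92 in Bap1ΔLysM preOCs, overlapped.

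**Figure D3:**
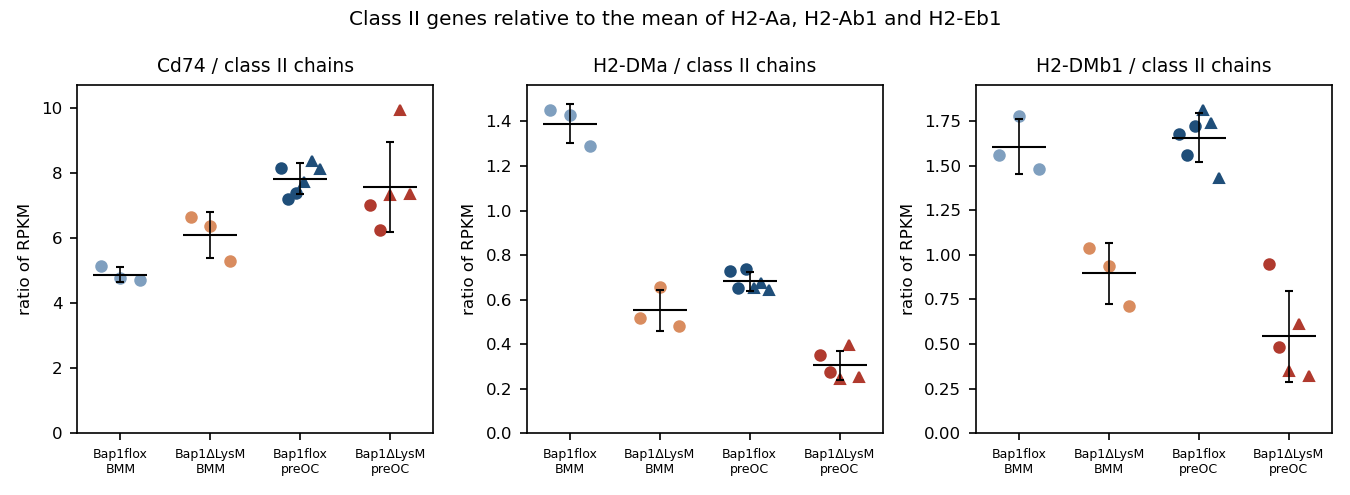
Ratio of Cd74, H2-DMa and H2-DMb1 to the mean of H2-Aa, H2-Ab1 and H2-Eb1 in RPKM (vertical axes from 0) by group, with a point per library, a line for the mean and bars for ± SD. The H2-DMa and H2-DMb1 ratios are lower in every Bap1ΔLysM library than in every Bap1flox library of the same culture, and the Cd74 ratio is higher in preOCs than in BMMs of Bap1flox cells.

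Across the 17 libraries, Pearson's r of log2 CPM between Cd74, H2-Aa, H2-Ab1 and H2-Eb1 was 0.72 to 0.94, as a description of libraries that share groups and sets. Ciita followed them with r of 0.61 for H2-Aa to 0.88 for Cd74. H2-DMb1 ran against them, from −0.33 with H2-Ab1 to −0.53 with H2-Eb1. H2-DMa had r of −0.27 with Cd74 over all libraries, and 0.95 once each group's mean was removed. With H2-Aa, H2-Ab1 and H2-Eb1 its r was near 0 over all libraries (0.13, 0.05 and −0.05), and 0.8, 0.9 and 0.76 with group means removed. Within a group, then, libraries with more Cd74 tended to have more H2-DMa, and the difference between groups ran otherwise. For H2-DMb1 and Cd74 the value with group means removed was 0.41. In part these values rest on the wide spread of the 5 Bap1ΔLysM preOC libraries, which fall in 2 library sets whose means were not removed. In replicates 1 and 2 Cd74 was at 111 and 147 CPM and H2-DMa at 6.50 and 7.59 CPM. In replicates 4 to 6 they were at 258 to 355 and 10.9 to 13.9 CPM, so a difference between sets cannot be told apart here.

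**Figure D4:**
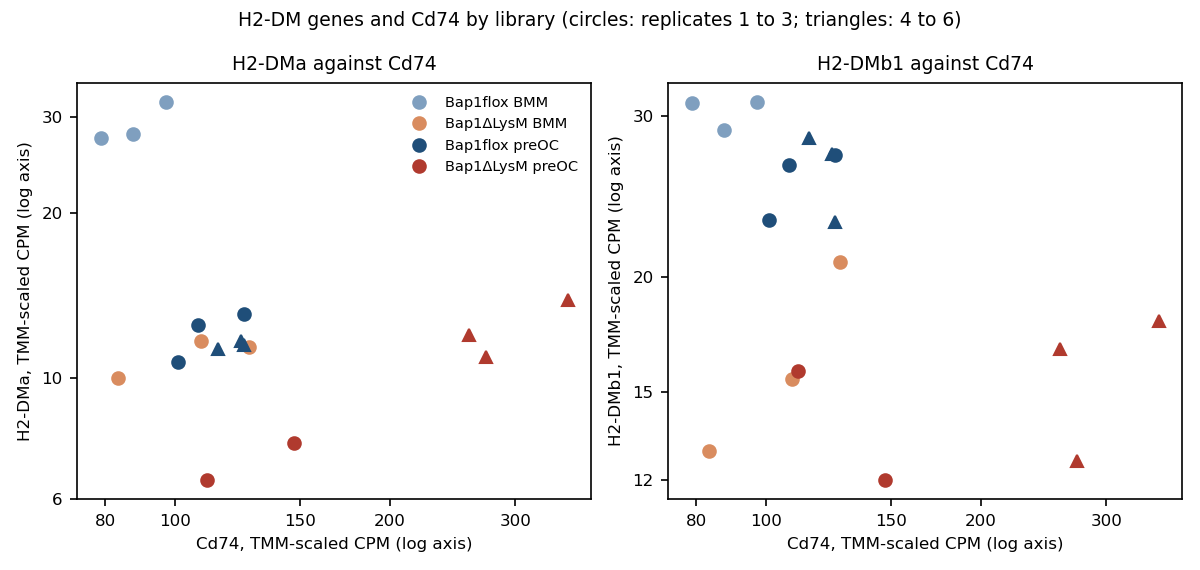
TMM-scaled CPM of H2-DMa (left) and H2-DMb1 (right) against Cd74 on log axes, 1 point per library, coloured by group, with circles for replicates 1 to 3 and triangles for replicates 4 to 6. Within Bap1ΔLysM preOCs, replicates 4 to 6 hold more Cd74 and more H2-DMa than replicates 1 and 2, and Bap1flox BMMs hold the highest H2-DMa.

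Among 13369 other genes, those whose log2 CPM followed the mean of Cd74 and the 3 chains most closely over the 17 libraries were Tnfrsf4 (r = 0.90), Ndrg2 and Sfmbt2 (both 0.87), Cask and Mplkip (both 0.86), Rdh14 (0.85), and Tmem64, Casc3, Bfar and Pnrc1 (all 0.84). Tnfrsf4, which encodes the costimulatory receptor OX40, was at 3.16 to 4.46 CPM in Bap1ΔLysM preOC replicates 4 to 6, at 1.27 and 2.52 CPM in replicates 1 and 2, and at 0.68 to 1.33 CPM in Bap1flox preOCs. All 10 were selected for this likeness. Ciita itself had r of 0.82 and stood 24th in that order, while H2-DMa had −0.06 and H2-DMb1 −0.45.

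The other genes of the pathway were taken from lists written from general knowledge, and their p was adjusted over all genes tested by edgeR. In preOCs 6 of 55 were higher and 3 lower in Bap1ΔLysM cells, where 7.12% and 8.68% of all genes tested were, so the counts over the lists stay near the background. Under the replicate block 19 passed, these 9 with 10 more, where 32.8% of all genes did. With DESeq2 13 passed and with voom 27, against 22.5 and 54.9% of all genes. In the fit without both Bap1ΔLysM replicates 1 and 2, added after the data were seen, 21 passed, against 39.3% of all genes. In replicates 4 to 6 alone it was 19, against 33.8%, and in replicates 1 to 3 alone 0 of the list and 0 of all genes. On leaving out 1 library 5 to 14 passed. The lowest count, 5, came without Bap1flox replicate 1 and without Bap1ΔLysM replicate 4 or 5 (11.4, 8.35 and 8.32% of all genes), and the highest, 14, without Bap1ΔLysM replicate 2 (21.6%). In BMMs 0 of 56 were higher and 1 was lower by edgeR, against 1.31% and 4.01% of all genes, with 14 at an unadjusted p under 0.05 (26.2% of all genes). With the block 8 passed, with DESeq2 9 and with voom 4, against 16.2, 15.9 and 13.6% of all genes.

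Costimulatory molecules, which act beside class II at the T cell contact, held 4 of the 9 calls in preOCs, with 3 of 7 tested higher and 1 lower. The lists are small and were not compared with each other. Cd86 was at 2.91 to 6.11 CPM in Bap1flox and 5.09 to 17.9 CPM in Bap1ΔLysM preOCs, a log2 difference of 1.55 ± 0.29 (adjusted p = 0.005). Cd40 was at 4.54 to 6.99 against 10.8 to 20.3 CPM, without overlap, with a difference of 1.28 ± 0.21 (adjusted p = 0.0029). Tnfsf4, the ligand of OX40, was at 1.97 to 2.87 against 4.21 to 6.18 CPM, also without overlap, with 1.12 ± 0.16 (adjusted p = 0.0015). Cd80 was lower by −0.46 ± 0.13 in preOCs (adjusted p = 0.032) and by −1.06 ± 0.21 in BMMs (adjusted p = 0.043). The calls of Cd86, Cd40 and Tnfsf4 held on leaving out each of the 11 libraries in turn, and that of Cd80 in 4 of 11 such fits in preOCs (adjusted p up to 0.093) and in no such fit in BMMs (adjusted p up to 0.14). In replicates 1 to 3 alone and in replicates 4 to 6 alone the preOC differences were 1.03 and 1.66 for Cd86, 1.51 and 1.14 for Cd40, 0.71 and 1.42 for Tnfsf4, and −0.36 and −0.52 for Cd80. In BMMs Cd40 was at 0.97 ± 0.33 (adjusted p = 0.13, and 0.019 with the block).

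Among the genes that set the turnover of class II at the surface, Cd83, which opposes the ubiquitin ligase March1, rose by 1.05 ± 0.24 in preOCs (adjusted p = 0.013), from 1.46 to 3.47 CPM in Bap1flox to 3.17 to 5.99 CPM in Bap1ΔLysM libraries, and was 1.15 in replicates 1 to 3 alone and 0.91 in replicates 4 to 6 alone. March1 was at 0.68 ± 0.34 (adjusted p = 0.2), with 0.92 and 0.46 in the same sets, and March8 at −0.04 ± 0.12 (adjusted p = 0.85), with 0.06 and −0.08. With voom 2 of these 3 turnover genes passed, where 54.9% of all genes did. Of the inducers and repressors of Ciita, 2 of 14 rose. Jak2, a kinase of the interferon gamma receptor, differed by 0.95 ± 0.18 (adjusted p = 0.0053), and this call held in all 11 leave-one-out fits, with 0.80 in replicates 1 to 3 alone and 0.96 in replicates 4 to 6 alone. Zbtb46, a dendritic cell factor, differed by 1.14 ± 0.31 (adjusted p = 0.029), held in 4 of 11 (adjusted p up to 0.092), and was 0.28 in replicates 1 to 3 alone and 1.64 in replicates 4 to 6 alone. Ifngr1 was at 0.43 ± 0.15 (adjusted p = 0.075, and 0.036 with the block), Irf1 at 0.29 ± 0.1 (adjusted p = 0.066, and 0.033 with the block) and Irf4 at 0.93 ± 0.39 (adjusted p = 0.13, and 0.0054 with the block). In replicates 1 to 3 alone and 4 to 6 alone Ifngr1 was at 0.40 and 0.42, Irf1 at 0.35 and 0.28, and Irf4 at 0.46 and 1.0, and in the latter set all of these were past the threshold (adjusted p = 0.014, 0.044 and 0.0087).

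Of the 7 enhanceosome genes, Rfxap, a subunit of RFX, was lower by −0.35 ± 0.1 in preOCs (adjusted p = 0.03, held in 5 of 11 leave-one-out fits), by −0.46 in replicates 1 to 3 alone and by −0.21 in replicates 4 to 6 alone (adjusted p = 0.11 in the latter). Rfx5 was at 0.36 ± 0.18 (adjusted p = 0.21, and 0.022 with the block) and Creb1 at 0.35 ± 0.19 (adjusted p = 0.26, and 0.017 with the block). In replicates 1 to 3 alone they were at 0.08 and 0.19, and in replicates 4 to 6 alone at 0.43 (adjusted p = 0.0067) and 0.34 (adjusted p = 0.083). In BMMs 0 of the 7 passed by edgeR, with 3 at an unadjusted p under 0.05 and 3 by DESeq2. Nfya, at 0.33 ± 0.11 in BMMs, passed with the block (adjusted p = 0.049) and with voom (adjusted p = 0.042). Of the 9 proteases tested with the invariant chain, Ctsl fell by 0.94 ± 0.26 on the log2 scale (adjusted p = 0.03, held in 5 of 11), with −0.65 in replicates 1 to 3 alone and −1.16 in replicates 4 to 6 alone. Ctss, the protease that makes the last cut of the invariant chain in many antigen-presenting cells, was at 0.31 ± 0.29 (adjusted p = 0.51), with 0.71 in replicates 1 to 3 alone and −0.01 in replicates 4 to 6 alone. Of 14 class I presentation genes 0 passed in preOCs by edgeR (0 at an unadjusted p under 0.05, 0 by DESeq2 and 1 by voom) and 0 in BMMs (2, 1 and 1 in the same order), and their median log2 difference was 0.05 in preOCs and 0.14 in BMMs. Of those 14, Psmb8 passed with the block in preOCs (adjusted p = 0.027) and Tap2 in BMMs (adjusted p = 0.045).

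**Figure D5:**
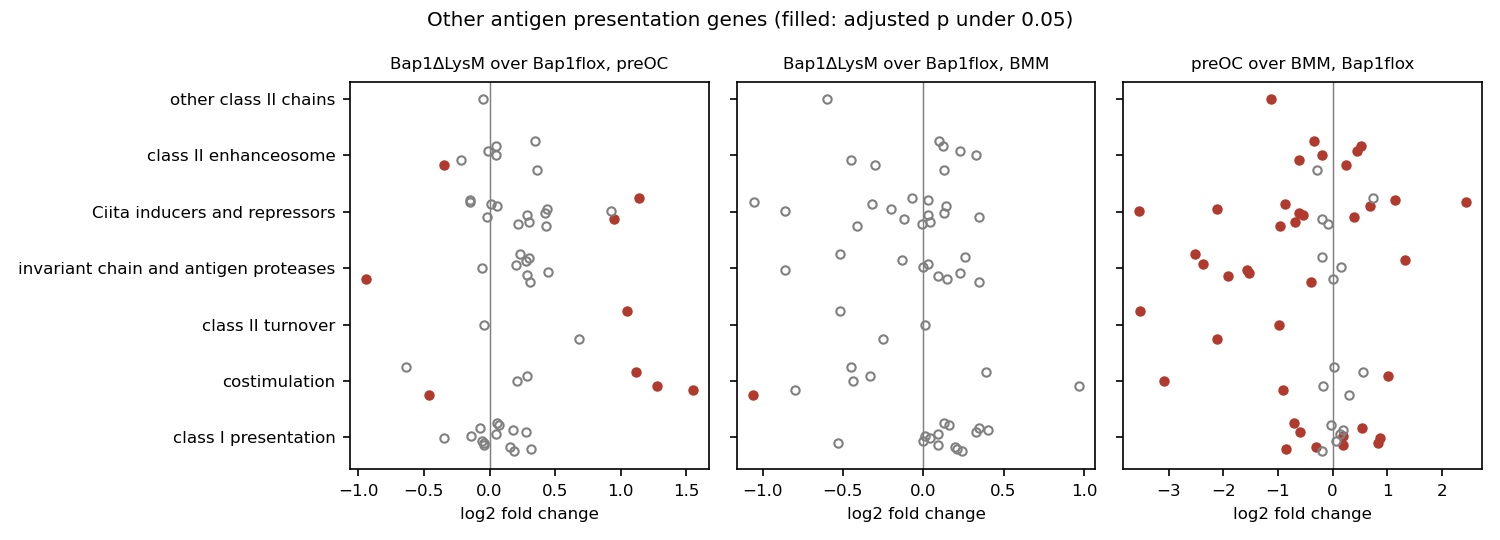
Log2 fold change of each tested gene of the 7 lists of other antigen presentation genes, for genotype in preOCs, genotype in BMMs and RANKL in Bap1flox cells, with filled points past an adjusted p of 0.05. In preOCs the filled points right of 0 are Cd86, Cd40, Tnfsf4, Cd83, Jak2 and Zbtb46, and in BMMs Cd80 is the single filled point.

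The remaining class II chains had few counted reads. H2-DMb2, whose reads shared with H2-DMb1 are counted for neither gene, was at 2.47 to 4.21 CPM in Bap1flox and 1.62 to 3.01 CPM in Bap1ΔLysM BMMs. It was at 1.04 to 1.78 CPM in Bap1flox and 0.943 to 1.81 CPM in Bap1ΔLysM preOCs, a difference of −0.05 ± 0.22 (adjusted p = 0.9), and fell by 1.13 ± 0.24 on the log2 scale with RANKL in Bap1flox cells (adjusted p = 0.0047). H2-Oa and H2-Ob, which encode the inhibitor of H2-DM, were at most at 0.55 and 1.14 CPM in any library, and H2-Eb2 at 0.482. H2-Ea-ps, an E alpha pseudogene, had 2 counts in 1 library and 0 in the others. The level of H2-Eb1 therefore does not show that E molecules were made.

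RANKL moved 40 of 56 of these genes in Bap1flox cells, 14 up and 26 down, where 31.7% and 32.9% of all genes moved. Irf8, a transcription factor of the macrophage lineage, fell by 2.11 ± 0.06 on the log2 scale (adjusted p = 2e-06) and Irf4 fell by 3.54 ± 0.48 (adjusted p = 0.0006). Prdm1, which represses Ciita, rose by 2.44 ± 0.27 (adjusted p = 0.00024), and Socs1, an inhibitor of interferon signalling, by 1.14 ± 0.15 (adjusted p = 0.00049). The proteases Lgmn (fell by 2.38 ± 0.06, adjusted p = 1.7e-06) and Ctse (fell by 2.52 ± 0.19, adjusted p = 4.2e-05) and the turnover genes Cd83 (fell by 3.53 ± 0.24, adjusted p = 2.8e-05) and March1 (fell by 2.11 ± 0.24, adjusted p = 0.00024) were lower. Icosl fell by 3.09 ± 0.18 (adjusted p = 1.6e-05) and the thiol reductase gene Ifi30 rose by 1.32 ± 0.21 (adjusted p = 0.0014). In Bap1ΔLysM cells 5 rose and 7 fell of 56, where 10.8% and 7.6% of all genes did, and the 12 became 1 without BMM replicate 2 or 3 (0.524 and 1.09% of all genes), 7 without preOC replicate 2 (5.87%), 20 with DESeq2 (29.9%) and 24 with all 5 preOC libraries (37.6%).

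Markers of other cells that make class II were read beside these values. Of 12 B cell genes 7, including Cd79a, Ms4a1 and Pax5, stayed under 1 CPM in every library, and the summed level of the 12 was 17.4 to 29.3 CPM in Bap1flox and 13.2 to 46.9 CPM in Bap1ΔLysM preOCs, mostly Ighm (5.17 to 38.7 CPM in the latter). Ighm was higher there (1.34 ± 0.42, edgeR adjusted p = 0.049), but Bank1 (−1.12 ± 0.2, 0.0045) and Cd22 (−1.52 ± 0.31, 0.0079) were lower. Cd79b (−0.16) and Ebf1 (−0.52) were not past the threshold. In replicates 4 to 6 the sum was 24.7, 24.7 and 28.2 CPM in Bap1flox and 45.4, 46.9 and 37 CPM in Bap1ΔLysM preOCs. In replicates 1 to 3 it was 17.4, 26.1 and 29.3 against 13.2 and 19.8 CPM. Of 12 conventional dendritic cell genes (Zbtb46 is also in the Ciita list) 5 (Xcr1, Clec9a, Cd209a, Dpp4 and Ccl17) stayed under 1 CPM, and the sum was 20.9 to 100 CPM against 42.6 to 110 CPM. Within replicates 4 to 6 that sum was 20.9, 28.5 and 21.3 CPM in Bap1flox and 110, 89.3 and 74.8 CPM in Bap1ΔLysM preOCs. Within replicates 1 to 3 it was 55.9, 100 and 94.5 CPM against 42.6 and 77.3 CPM, with overlap. Clec10a took 31.7 to 43.2 CPM of it in Bap1ΔLysM replicates 4 to 6 and 3.14 and 8.04 CPM in Bap1ΔLysM replicates 1 and 2. Of 6 plasmacytoid dendritic cell genes 4, Siglech among them, stayed under 1 CPM, and the rest of the list was led by Spib, at 15.1 to 39.9 CPM in Bap1ΔLysM and 2.12 to 5.76 CPM in Bap1flox preOCs. Of 6 plasma cell genes, summing to 336 to 433 CPM against 257 to 399 CPM, Xbp1 was the highest. The 10 neutrophil genes summed to 91.7 to 248 CPM against 179 to 635 CPM, and were highest in the same replicates 4 to 6 as Cd74. Osteoclast genes summed to 6600 to 14225 CPM in Bap1flox and 6093 to 15870 CPM in Bap1ΔLysM preOCs, against at most 385 CPM in BMMs, so the preOC label held by its markers. The 9 macrophage genes were all detected. Their sum was 28411 to 33324 CPM in Bap1flox and 7777 to 19012 CPM in Bap1ΔLysM BMMs, and 10239 to 18178 against 3657 to 12340 CPM in preOCs. Without Lyz2, which the Cre insertion interrupts, it was 8492 to 10481 against 7741 to 9458 CPM in BMMs and 3638 to 4819 against 3644 to 5668 CPM in preOCs, and the genotypes overlapped. What these genes contribute to the class II values was not tested.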

How the data were processed

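The 17 libraries were made from oligo-dT selected RNA. Per the labels' processing notes the authors aligned reads with STAR 2.5.1a to GRCm38 and counted them with featureCounts 1.4.6-p5, and the deposited counts are uniquely aligned, unambiguous reads per gene. Whether counting used strand is not given in the sources used here. The authors also deposited CPM and RPKM, and both were recomputed from the counts and exon lengths without a difference. Here 355 ribosomal RNA genes were left out. Symbols were matched for 40254 of 41388 identifiers.

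The members, lists and tests were chosen with earlier results of these data known. Named beside the 7 members were genes of each list past the threshold (at most 4 a direction by fold change) and all other class II chains. The 10 genes most like Cd74 and the chains were named too, as were the top marker of each list and the other B cell markers tested in preOCs. A marker gene is not reported here and was left out of its list. Counts were fitted with edgeR 4.0.16 in R 4.3.3 (TMM, quasi-likelihood test, Benjamini-Hochberg over all genes tested, threshold 0.05), for genes with CPM above 1 in at least 4 of 11 preOC, 2 of 6 BMM or Bap1flox, or 1 library in the other fits. The standard error is the log2 fold change over the root of the F statistic. Log2 CPM used a prior count of 2. RPKM levels in the text are TMM-scaled CPM per kilobase. On simulated counts for the preOC contrast (12929 genes) the test recovered 70% of 100 genes changed by 1 on the log2 scale and 100% of those changed by 2. It called 4 unchanged genes. The simulation gave every gene the same spread in both genotypes (biological coefficient of variation 0.274) and had no library sets. It therefore does not give the power for genes whose spread differs between genotypes, such as Cd74. Same-numbered libraries deviated together in BMMs (correlations 0.31 to 0.5) and in preOCs (0.36 to 0.71, but −0.15 to 0.42 with library-set means removed), and so did Bap1flox BMMs and preOC replicates 1 to 3 (0.23 to 0.37 within that set, −0.2 to 0.51 against the mean of all 6 preOCs), so the block was applied to these. Alternatives were other size factors, DESeq2 1.42.0, limma 3.58.1 (voom with quality weights), other filters, the block, the library set and leaving out each library. Counts set a floor only for the lowest genes, since most precision is limited by the spread between libraries.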

Additional observations from a re-analysis of the deposited data

How the results depend on the processing

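Over the alternatives run, 555 of the members' log2 differences moved by less than 1 SD between libraries and 26 moved further, and no member past the threshold changed sign. H2-DMa in preOCs, which was not past it, was −0.22, and 0.05 with voom, 0.1 in replicates 4 to 6 alone and 0.03 without both Bap1ΔLysM replicates 1 and 2, an alternative added after the data were seen. Of the named pathway genes, Creb1 (0.01) and Tap1 (−0.12) reversed in the RANKL contrast when all 6 Bap1flox preOC libraries were used. Of the other values of such genes over the alternatives, 739 kept direction and side of the threshold and 112 kept direction but were no longer past it. The cause was not tested.

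The count of genes past the threshold in preOCs (2043) became 7099 with voom, 4349 with a term for the library set, 4304 in replicates 4 to 6 alone, 0 in replicates 1 to 3 alone and 5224 without both Bap1ΔLysM replicates 1 and 2. It ran from 1071 without Bap1ΔLysM replicate 5 to 3085 without replicate 1, with 1074 without replicate 4 and 1333 without Bap1flox replicate 5. In BMMs 693 became 2065 with DESeq2 and 1772 with voom, and ran from 4 without Bap1flox replicate 3 to 756 without Bap1ΔLysM replicate 3, with 7 without Bap1flox replicate 2, 84 without Bap1ΔLysM replicate 2, 298 without Bap1flox replicate 1 and 369 without Bap1ΔLysM replicate 1. For RANKL in Bap1ΔLysM cells 2503 became 4073 with DESeq2, 1628 with voom and 5176 with all 5 preOC libraries, and ran from 71 to 3634 on leaving out 1 library, where the lone remaining preOC library is assumed to vary like the others. The interaction gave 0 by edgeR, 111 with DESeq2, 384 with all 17 libraries, and 0 to 118 on leaving out 1 library.

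With the replicate block the counts were 4236 in preOCs and 2107 in BMMs, and stayed within 1.5 times in the RANKL contrasts (8514 and 2657) and at 0 in the interaction. Beside the results above, in the RANKL contrast of Bap1flox cells with the block Tap1 and Psmb9 were not past the threshold (adjusted p = 0.065 and 0.066 by edgeR) and Zbtb46 was (0.026). The Bap1ΔLysM BMM and preOC libraries share 2 numbers (correlations 0.5 and 0.35), too few to be taken as paired.

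The correlation of H2-DMa with Cd74 over all libraries was −0.38 to −0.16 on leaving out 1 library, and with group means removed 0.91 to 0.97. Leaving out 1 library does not separate the library sets. With 5 Bap1ΔLysM preOC libraries in 2 sets, of which 1 retained Lyz2, the size of the chain differences is limited by the spread between libraries and not by depth.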

Other observations

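Some genes of the marker lists differed in all Bap1ΔLysM preOC libraries, and are given here as values chosen after they were seen. Spib, an ETS family transcription factor, was at 15.8 and 15.1 CPM in replicates 1 and 2 and at 39.9, 38.3 and 26.4 CPM in replicates 4 to 6, against 2.12 to 5.76 CPM in Bap1flox preOCs, a log2 difference of 2.73 ± 0.32 (edgeR, adjusted p = 0.00055). Jchain, the joining chain of polymeric immunoglobulins, was at 4.79 to 7.66 CPM against 0.0976 to 0.755 CPM (4.01 ± 0.39, adjusted p = 0.00034). The chemokine gene Ccl22 was at 5.13 to 12.9 against 0.99 to 1.77 CPM (2.56 ± 0.24, adjusted p = 0.00034), and the chemokine receptor gene Ccr7 at 2.3 to 3.26 against 0.44 to 0.793 CPM (2.07 ± 0.21, adjusted p = 0.00034). None of these 4 overlapped between the genotypes, including the library that retained Lyz2. In preOCs 3.32% of genes did not overlap in this direction.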
